A study of Caenorhabditis elegans with 60 samples.

Results

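Small RNAs of gonads dissected from henn-1 mutants were set against those of wild type gonads, with 3 libraries per genotype. The deposited gonad table lists 21815 features, and the 9456 whose mean normalized read count over the 6 libraries was at least 10 are described here. Read by the authors' class prefix, they were 3448 of 15366 piRNAs, 2387 of 2434 WAGO loci, 3542 of 3640 CSR-1 loci and 79 of 375 microRNA arms. The series holds 60 samples of the nematode Caenorhabditis elegans, and its title concerns henn-1 and the immortality of the germline. The mutants carried 1 allele, henn-1(pk2295) on chromosome III, and the wild type was the laboratory strain N2. Both groups were gravid adults grown for 68 to 70 h at 20 C on the E. coli strain OP50. RNA was size-selected on gels and treated with a polyphosphatase, which opens the triphosphorylated end of 22G-RNAs to ligation. The labels speak of dissected gonads but also of whole animals frozen before extraction, and they name no separate culture for each replicate. P-values therefore measure the spread between these libraries, which may be technical.

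HENN-1 belongs to the HEN1 family of methyltransferases, which modify the ribose of the last nucleotide of small RNAs. In the worm its substrates include the piRNAs, short RNAs carried by the Piwi Argonaute PRG-1, and the 26G-RNAs of the Argonaute ERGO-1, and without the modification the 3′ end of a piRNA is open to trimming and tailing. A piRNA that pairs with a transcript recruits RNA-dependent RNA polymerases, which copy the transcript into antisense 22G-RNAs. 22G-RNAs of WAGO loci are bound by worm-specific Argonautes such as HRDE-1 and WAGO-1 and accompany silencing, whereas those of CSR-1 loci match expressed germline genes. MicroRNAs of the worm are mostly carried by other Argonautes, and most are not methylated by HENN-1.

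The libraries held 6716969, 8745475 and 7269968 recovered reads for henn-1, against 4215264, 7051210 and 5033862 for wild type. The mRNA of henn-1 itself, measured in separate gonad libraries, averaged 237 normalized counts in henn-1 and 2244 in wild type. 22G-RNAs mapped to the henn-1 gene (C02F5.6) were 118, 104 and 104 in henn-1 gonads, against 181, 234 and 167 in wild type gonads, and fell by 0.82 on the log2 scale (SE 0.14, adjusted p = 0.000506, limma, n = 3 per group). No count is given for prg-1, which the table does not list among its 22G-RNA loci. The tissue label was checked against markers. Body tissue microRNAs (mir-1, mir-124, mir-228, mir-243, lin-4 and let-7) made up 0.553% ± 0.083 of microRNA reads in henn-1 gonads and 0.566% ± 0.091 in wild type gonads (SD, n = 3 each), against 6.85% in untreated wild type whole animals of a separate set. The oocyte and embryo family mir-35 made up 39.4% ± 5.35 and 42.8% ± 7.22 in the same gonads, and 0.381% in the whole animals. These whole animals were at 52 h and the gonads came from adults of 68 to 70 h, so tissue and stage cannot be told apart here. Of 11 mRNA markers of muscle, intestine, epidermis and neurons, the epidermal genes dpy-7 and rol-6 were listed at 0 in all gonad mRNA libraries, and 6 had a higher mean in henn-1. Their sum was 1311, 1089.7 and 1302 in henn-1, against 1230.0, 912 and 899.6 in wild type, with the epidermal collagen gene col-19 at 224, 140.4 and 108 in henn-1, against 189, 77.6 and 65.9 in wild type. The germline gene pgl-1 averaged 10651 in henn-1 and 12145 in wild type, and glh-1, prg-1, rme-2 and puf-5 also had lower means in henn-1. The sperm genes spe-9, spe-11, gsp-3, gsp-4 and spe-41 had higher means in henn-1, with overlapping libraries for spe-11, gsp-3 and gsp-4. The body muscle gene myo-3 was 133, 143 and 188 in henn-1, against 51.5, 53.5 and 69.1 in wild type. Lower means in henn-1 were those of the intestinal genes vit-2 (40.8 against 63.7) and vit-5 (41.2 against 60.6) and the neuronal gene snb-1 (420 against 485). The part of body tissue in the small RNA results was not tested. Fewer cells of a type and less RNA per cell cannot be told apart in such libraries.

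piRNAs were the class that differed most. Summed over all 15366 listed piRNAs, with no filter, the normalized read count was 823878, 771855 and 790109 in henn-1 gonads, against 148544, 154531 and 162194 in wild type gonads, which is 5.13-fold higher. WAGO loci held 1992362 ± 101521 in henn-1 and 2376729 ± 77354 in wild type (SD, n = 3 each), a ratio of 0.838. The groups did not overlap in either class. CSR-1 loci held 2107491 ± 20668 in henn-1 and 2089993 ± 42051 in wild type, and microRNAs held 90642 ± 7309 and 77410 ± 8326. All these totals are relative within the table, since each library was scaled by the authors. Methylation of the 3′ end can affect ligation, so piRNAs in greater number and piRNAs captured more readily cannot be told apart in these reads. As shares of a library, piRNAs took 16.0% ± 0.72 in henn-1 and 3.30% ± 0.16 in wild type, and WAGO loci took 39.9% ± 1.38 and 50.6% ± 1.34. The share of CSR-1 loci was 42.3% ± 0.53 in henn-1 and 44.5% ± 1.178 in wild type. For these 3 classes the two-sided exact permutation p was 0.1, the smallest that 3 libraries against 3 allow. The shares of a library add up to the whole, so a larger piRNA share lowers the others. These 3 results are thus not independent. The summed count of CSR-1 loci, not taken as a share, was 1.01 of that in wild type. MicroRNAs took 1.82% ± 0.16 in henn-1 and 1.65% ± 0.17 in wild type (exact permutation p = 0.4).

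**Figure D1:**
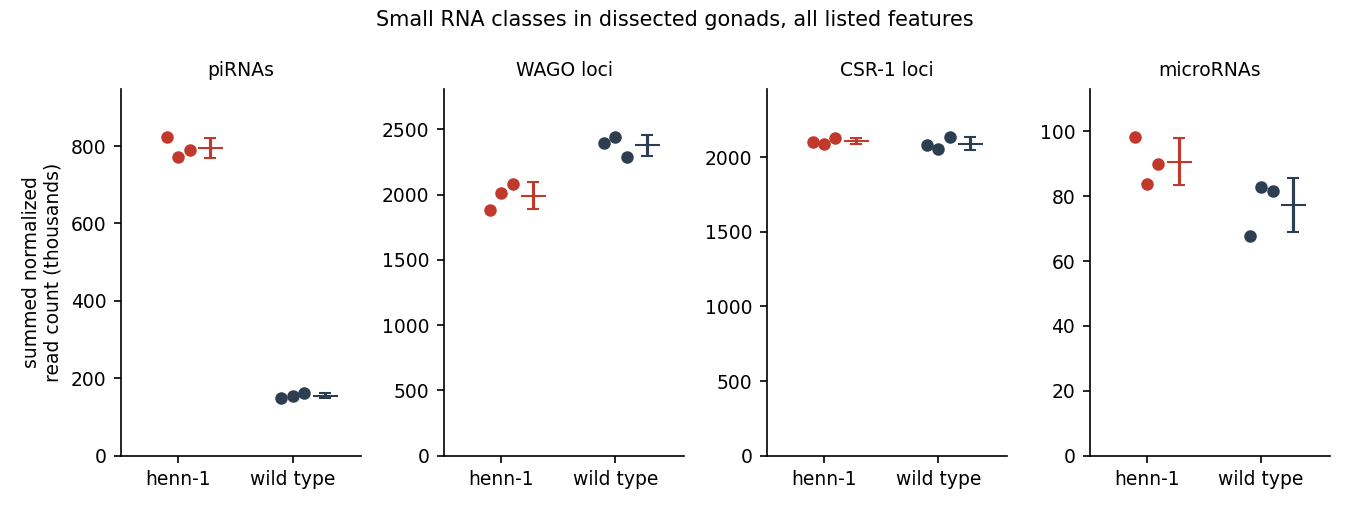
Summed normalized read counts of each small RNA class over all its listed features, in units of 1000 reads, with each point a gonad library and each bar the mean ± SD of 3 libraries. The 3 henn-1 piRNA totals lie between 771855 and 823878, above all wild type totals (148544 to 162194), while the CSR-1 totals of the genotypes lie close together.

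The plot of class totals shows the piRNA gain and the WAGO loss apart from the spread of the libraries. The number of features with any read differed as well: 16065, 16130 and 15964 features were above 0 in the henn-1 libraries, against 11399, 12002 and 11626 in the wild type libraries. 4440, 4180 and 4303 piRNAs reached a normalized read count of 10 in henn-1, against 1671, 1629 and 1675 in wild type. piRNA reads were also spread more evenly. The 10 most abundant piRNAs of a library held 8.06% ± 0.55 of its piRNA reads in henn-1 and 13.3% ± 0.45 in wild type, and the top 100 held 32.2% ± 0.86 and 44.7% ± 1.03. WAGO loci went the other way by a small amount, since their top 10 held 13.004% ± 0.10 of WAGO reads in henn-1 and 11.6% ± 0.28 in wild type. For CSR-1 loci the top 10 held 6.64% ± 0.068 and 6.67% ± 0.13.

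Feature by feature, log2 of the value plus 1 was fitted with limma over all 9456 features, and an adjusted p under 0.05 was taken as a call. Over all features 3976 rose (42% of those tested) and 1501 fell (15.9%). Of 3448 tested piRNAs, 3354 rose (97.3%) and 3 fell (0.087%). Of 2387 WAGO loci, 282 rose (11.8%) and 1319 fell (55.3%), and of 3542 CSR-1 loci, 317 rose (8.95%) and 179 fell (5.05%). Of 79 microRNA arms, 23 rose (29.1%) and 0 fell (0%) with limma. At an unadjusted p under 0.05, 0 fell with limma, and edgeR called 1 lower and DESeq2 0. The median log2 change was 2.90 for piRNAs, -0.36 for WAGO loci, 0.04 for CSR-1 loci, 0.24 for microRNAs and 0.14 over all features. The scaling sets where 0 lies. With TMM factors the median over all features was -0.11, and the calls were 3489 higher and 3450 lower. The piRNA and WAGO medians kept their sign under TMM factors, library totals and the microRNA total, at 2.67 and -0.62 with TMM factors, while the CSR-1 median was negative under all of these and the microRNA median under TMM factors. The 3 values of each genotype did not overlap for 66.3% of all tested features, 97.5% of piRNAs, 77% of WAGO loci, 29.8% of CSR-1 loci and 24.1% of microRNA arms.

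**Figure D2:**
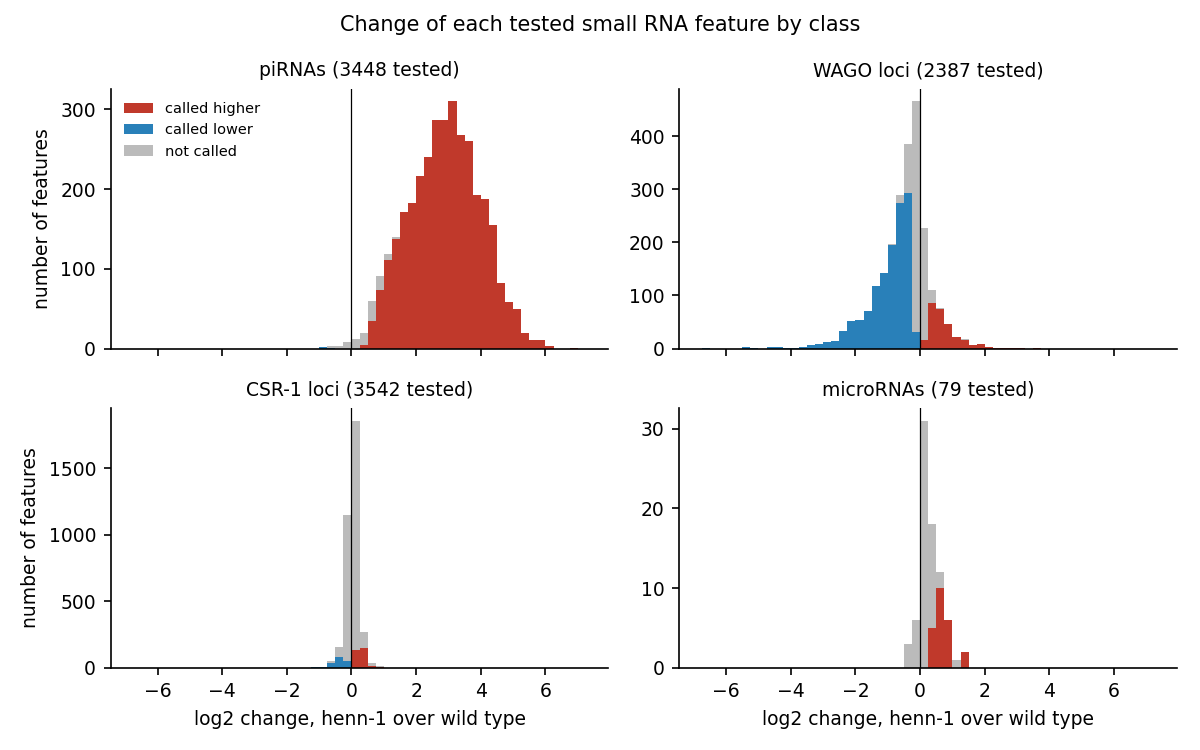
Histograms of the log2 change of every tested feature, henn-1 over wild type, by class, with the number of features on the vertical axis and colours for features called higher, called lower or not called. The piRNA histogram is centred near its median of 2.90, the WAGO histogram has a long left arm (median -0.36), and the CSR-1 and microRNA histograms lie near 0.

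A second fit took each value as a share of its class total in the library, so that a shift of the whole class does not count as a change of each member. There, 1354 piRNAs rose (39.3%) and 493 fell (14.3%), with a median of 0.72. Of the tested piRNAs, 1820 passed the filter only through their henn-1 libraries, which favours a rise in this fit too. Among the 1628 with a mean of at least 10 in wild type, 516 rose and 463 fell. Of WAGO loci 490 rose (20.5%) and 901 fell (37.7%), median -0.11. Of CSR-1 loci 241 rose (6.8%) and 171 fell (4.83%), and of microRNAs 2 rose (2.53%). The histograms by class and this fit together show that the wide spread lay within piRNAs and WAGO loci. In both fits, 1354 piRNAs, 282 WAGO loci and 237 CSR-1 loci were higher, and 3, 901 and 154 were lower.

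How piRNAs entered the test bears on the count that rose. Of the 3448 tested, 1628 reached a mean of 10 in wild type, and 1820 passed only through their henn-1 libraries, so that these had to differ. Just outside the limit lay 21ur-15296, 21ur-3274, 21ur-742 and the CSR-1 locus fox-1, with means of 10.00, 10.00, 9.99 and 9.99. Just inside lay 21ur-5724, 21ur-11351, 21ur-7873 and 21ur-8676, with means between 10.00 and 10.01. Features were also chosen instead by their level in separate libraries of untreated wild type whole animals at 52 h. There 3936 piRNAs rose and 4 fell, the 3 that fell in the main test among them, with a median log2 change of 2.40. The 11918 piRNAs below the limit, summed, held 29287 ± 2368 in henn-1 and 3896 ± 73.2 in wild type, which is 7.52-fold higher.

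The size of the gain varied with the level of a piRNA in those separate wild type libraries. The 91 piRNAs at 1000 or more there summed to 138686 in henn-1 gonads and 51648 in wild type gonads, a 2.69-fold difference, with a range of 2.58 to 2.89 over all pairs of a henn-1 and a wild type library. For the 1140 piRNAs at 100 to 1000 the sums were 384627 and 74999 (5.13-fold, 4.68 to 5.59). For the 3299 at 10 to 100 they were 230200 and 24641 (9.34-fold, 8.69 to 10.3). Each step down in level thus came with a larger ratio over this range, and the ranges of the library pairs did not overlap. The 4214 piRNAs at 1 to 10 differed 10.96-fold (9.67 to 13.1), the 2126 above 0 and below 1 differed 10.4-fold (8.83 to 12.0), and the 4496 with no read there differed 13.2-fold (10.0 to 16.6). Among these lowest 3 groups the ranges overlapped.

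**Figure D3:**
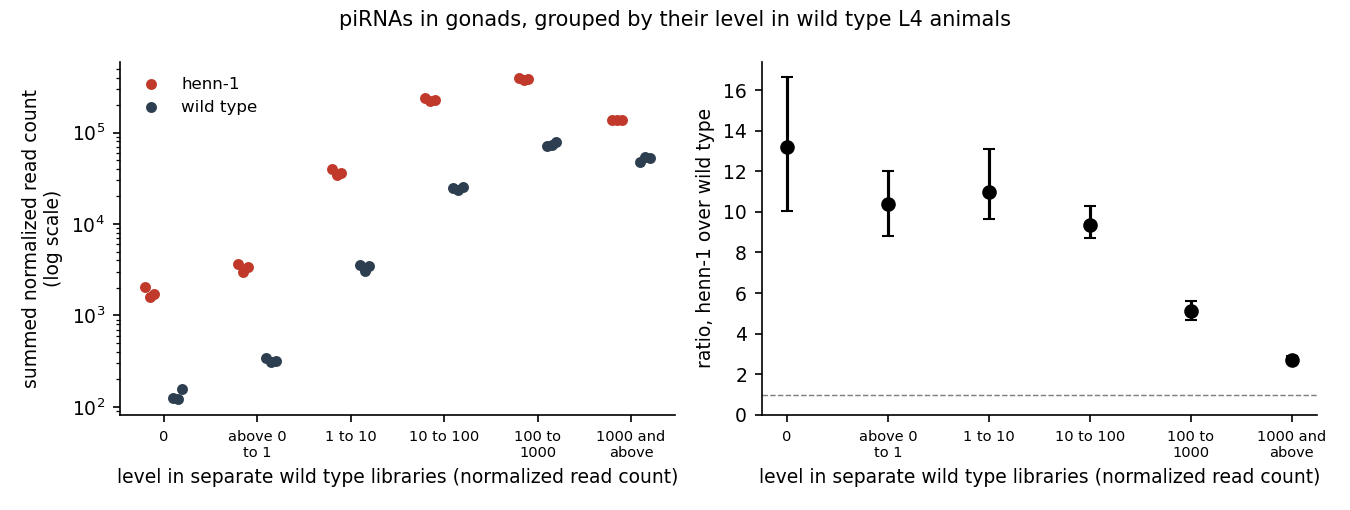
piRNAs grouped by their level in separate untreated wild type libraries, with the summed normalized read count of each gonad library on a log scale (left, henn-1 drawn left of wild type) and the ratio of the group means, henn-1 over wild type (right, bars from the lowest to the highest ratio of any library pair). The ratio is 2.69 for piRNAs at 1000 and above and 9.34 to 13.2 for the groups below 100.

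As the plot of piRNAs by level shows, the sum was higher in henn-1 at every level, and the gain was spread over many piRNAs. The 3354 piRNAs that rose gained 613733 in summed normalized reads, of which the 10 largest gains made up 8.60% and the 100 largest 32.6%. The largest gain in reads was that of 21ur-5560, with 7436, 8875 and 9253 in henn-1 gonads, against 398, 342 and 337 in wild type gonads (log2 change 4.56, SE 0.10, adjusted p = 1.08e-09, limma). 21ur-2351 had 7271, 6815 and 7222 in henn-1, against 473, 555 and 644 in wild type (log2 3.68). 21ur-1569 had 6495, 6121 and 7160 in henn-1, against 297, 246 and 333 in wild type (log2 4.499). These 3 piRNAs and 21ur-997, with 5335, 6037 and 7111 against 359, 281 and 355 (log2 4.21), had henn-1 values far above all wild type values. All 4 also rose as a share of piRNA reads, by 2.21, 1.32, 2.14 and 1.86 on the log2 scale.

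Of the 3 piRNAs of highest mean, 21ur-5560 had the largest gain in reads, and the other two changed less. 21ur-3975 had 7120, 7703 and 7837 in henn-1, against 2593, 2708 and 3192 in wild type, which is 2.67-fold higher, and its share of piRNA reads fell by 0.94 on the log2 scale. 21ur-3819 had 6725, 6359 and 6679 in henn-1, against 1646, 1291 and 1478 in wild type, 4.48-fold higher, while its share moved by -0.19 and was not called. Thus among abundant piRNAs the order of the genotypes in reads and in share could differ, since a share is set by all other piRNAs too.

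The largest log2 increases were in piRNAs near the lower limit of the wild type libraries. 21ur-1424 had 561, 348 and 426 in henn-1, against 2.23, 3.36 and 1.86 in wild type (log2 6.998, SE 0.25, adjusted p = 1.43e-08, limma). 21ur-2266 had 289, 492 and 415 in henn-1, against 4.45, 6.04 and 2.78 in wild type (log2 6.22), and 21ur-4437 had 518, 206 and 294, against 3.34, 2.69 and 5.57 (log2 6.07). The henn-1 values of 21ur-4437 differed among themselves by more than those of the other piRNAs named. As shares of piRNA reads the largest increases were in 21ur-3270, 21ur-1424 and 21ur-3225. 21ur-3270 had 52.6, 58.4 and 58.9 in henn-1 and no read in wild type, which is at least 20.9-fold higher against a floor of 3 reads per wild type library. 21ur-3225 had 78.9, 88.9 and 82.0 in henn-1, against 0, 1.34 and 0 in wild type. In all, 21 tested piRNAs had no read in the 3 wild type libraries. They passed the limit only through henn-1, which sets the lowest of their bounds (7.38-fold), and placing them at their bounds left the piRNA median at 2.90.

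Only 3 tested piRNAs fell. 21ur-1656 had 54.1, 53.3 and 42.04 in henn-1, against 96.8, 128 and 80.7 in wild type (log2 -0.9996, SE 0.20, adjusted p = 0.0013, limma). 21ur-14852 had 95.0, 133 and 100.2 in henn-1, against 183, 174 and 174 in wild type (log2 -0.70), and 21ur-15587 had 26.3, 19.8 and 17.5, against 45.6, 38.3 and 38.1 (log2 -0.92). None of the henn-1 values of these piRNAs reached a wild type value. They also had the largest losses of share, at -3.33, -3.05 and -3.21 on the log2 scale. The embryo libraries of the series, which are separate from the gonad libraries and count piRNAs by read length, gave shares of the same sign for all 3: -3.06 for 21ur-1656, -2.43 for 21ur-14852 and -4.64 for 21ur-15587, the last from 1 read in henn-1 and 35 in wild type.

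Another 91 tested piRNAs were not called. Their embryo share had a median log2 change of -1.98 (above 0 for 7.69% of 91), against 0.38 for the piRNAs that rose (above 0 for 60.8% of 3349). They also stood higher after periodate oxidation of wild type whole animals, which spares RNAs with a methylated end: the median log2 ratio of oxidized over untreated was 3.70 (n = 90), against 1.99 for the piRNAs that rose (n = 3185). Labels of the oxidized libraries conflict on their stage, L4 in the description and gravid adults in the source name, so stage and oxidation cannot be told apart there. Among piRNAs with a mean of at least 10 in wild type, a restriction chosen after the data were seen, 73 were not called and 1552 rose. There the median embryo share change was -1.97 for those not called and -0.10 for those that rose, and the oxidation ratio was 3.76 and 2.18. These are descriptions of groups formed by the gonad test, with no test of their own.

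The embryo libraries showed what the piRNAs share in read length. Of piRNA reads in henn-1 embryos 28.4, 23.4 and 24.7% were 21 nt long, against 71.2, 76.8 and 74.2% in wild type embryos. Reads of 20 nt made up 41.01, 41.5 and 39.4% in henn-1 and 12.1, 10.5 and 11.2% in wild type, and reads of 19 nt made up 20.4, 23.4 and 23.2% against 6.60, 5.45 and 5.87%. The genotypes did not overlap at any of these lengths. Named piRNAs varied widely in how much full length remained. At 21 nt stood 88.6% of the reads of 21ur-997 in henn-1 embryos and 94.8% in wild type embryos, 41.3% against 97.0% for 21ur-2351, 17.96% against 86.2% for 21ur-3819, and 3.90% against 90.8% for 21ur-5560. 21ur-1569 kept 1.32% in henn-1 embryos, against 87.8% in wild type embryos. Yet 21ur-997, 21ur-1569 and 21ur-5560 were all among the 4 largest gains in gonads.

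Share changes in gonads and embryos were correlated across piRNAs. The log2 share change of gonads and that of embryos had a Pearson r of 0.70 and a Spearman rho of 0.71 over 3443 piRNAs, which share libraries within each tissue and are not independent replicates. Most of these piRNAs passed the limit only through henn-1, and over the 1628 that reached a mean of 10 in wild type r was 0.72 and rho 0.73. piRNAs whose share rose in gonads had a median embryo share change of 1.35 (above 0 for 87.0% of 1352), those whose share fell had -1.35 (above 0 for 7.91% of 493), and those not called had 0.06 (51.8% of 1598). Among the 1628 the medians were 0.98 (n = 516), -1.35 (n = 463) and -0.23 (n = 649) in the same order. Among named piRNAs the embryo share change was 6.34 for 21ur-1424, 4.15 for 21ur-4437, 2.72 for 21ur-5560 and 2.09 for 21ur-1569, but -0.36 for 21ur-2351, whose gonad share rose. Against the oxidation ratio of wild type animals, the gonad change of piRNAs had r -0.39 and rho -0.37 (n = 3278), and r -0.44 and rho -0.46 over those that passed by wild type (n = 1625). The median oxidation ratio was 1.63 for piRNAs whose share rose, 3.27 for those whose share fell and 2.01 for the rest. Their levels differed too, with median wild type gonad values of 5.88, 53.7 and 7.70, and the part of level in these relations was not tested.

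WAGO loci lost 22G-RNAs at more loci than they gained them. The median log2 change was -0.83 over the loci that fell and 0.61 over the loci that rose, whereas the mean change in normalized reads per locus was of similar size, at -333 and 346. Of the 1319 loci that fell, 899 fell by at least 1.5-fold, 525 by at least 2-fold, 140 by at least 4-fold and 29 by at least 8-fold. Of the 282 loci that rose, 154 rose by at least 1.5-fold, 60 by at least 2-fold, 7 by at least 4-fold and 2 by at least 8-fold. The summed difference, henn-1 minus wild type, was -439712 normalized reads over the loci that fell and 97448 over the loci that rose. The gain was more concentrated than the loss: the 10 largest gains made up 34.1% of it and the 100 largest 82.5%, while the 10 largest losses made up 15.2% of the loss and the 100 largest 49.04%.

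Every kind of WAGO locus the authors label had a share of lower loci near the 55.3% over the whole class: 55.2% of gene loci, 60.2% of pseudogenes, 53.9% of transposons and 52.6% of CDS. Of 1833 gene loci 1012 fell and 253 rose (median log2 change -0.41). Of 171 pseudogenes 103 fell and 13 rose (median -0.43), of 191 transposons 103 fell and 4 rose (median -0.32), and of 192 loci listed as CDS 101 fell and 12 rose (median -0.28). The medians of all 4 kinds were negative and lay within a narrow range. The share of higher loci differed between kinds, at 13.8% of gene loci, 7.60% of pseudogenes, 6.25% of CDS and 2.09% of transposons. Over the whole class it was 11.8%. Identical values occurred in 99 of the 2387 tested WAGO loci, so copies that share reads may be counted more than once in these shares. Among them were the CDS loci K02B7.1, W03G1.4 and Y55F3C.6, which all rose. By level, the kept share was smallest at weakly covered loci. The 82 loci under 10 in the separate wild type libraries kept 0.477 of the wild type sum in henn-1 gonads, the 417 loci at 10 to 100 kept 0.632, the 1224 at 100 to 1000 kept 0.810 and the 664 at 1000 or more kept 0.851. The share of loci that fell did not follow this order throughout: it was 72.0% (median log2 change -1.27), 62.8% (-0.71), 49.02% (-0.31) and 59.9% (-0.34) in order of rising level. Read counts are per locus and not per length, so they do not rank one locus above another in density.

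Single loci ranged from near-complete loss to a gain of over 8-fold. Y34D9A.8 had 10.96, 10.2 and 9.81 in henn-1 gonads, against 1071, 1062 and 953 in wild type gonads (log2 -6.51, SE 0.12, adjusted p = 5.77e-10, limma). R04A9.7 had 2.92, 7.36 and 6.31 in henn-1, against 262, 255 and 263 in wild type (log2 -5.39), and F10E9.2 had 22.7, 10.8 and 17.5, against 696, 702 and 751 (log2 -5.38). exc-9, which encodes a LIM domain protein of the excretory canal, had 3.65, 2.27 and 2.80 in henn-1, against 164, 169 and 151 in wild type (log2 -5.39). At these 4 loci a few percent or less of the wild type signal remained in each henn-1 library.

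The largest losses in reads were at abundant loci with modest folds. The pseudogene F32A11.5 had 17270, 14314 and 16210 in henn-1, against 28119, 26831 and 30009 in wild type (log2 -0.83, SE 0.09, adjusted p = 2.13e-05, limma). T27C5.9 had 9851, 10317 and 10718 in henn-1, against 20465, 20488 and 18244 in wild type (log2 -0.94). K08B4.5 (log2 -0.86) and T23B12.10 (log2 -0.74) followed. In none of these did a henn-1 library reach a wild type library, and all 4 also fell as a share of WAGO reads, by 0.58, 0.68, 0.60 and 0.49 on the log2 scale.

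Gains were led by D2045.9, with 2109, 2351 and 2308 in henn-1, against 171, 181 and 171 in wild type (log2 3.68, SE 0.07, adjusted p = 5.77e-10, limma). R102.4 had 852, 796 and 890 in henn-1, against 106, 100.1 and 109 in wild type (log2 3.00). The pseudogene F59A1.9 had 5094, 6055 and 6006 in henn-1, against 887, 911 and 716 in wild type (log2 2.77). At these 3 loci every henn-1 library lay far above every wild type library. In reads, gains of Y53F4B.5 (13951, 13977 and 14478 in henn-1, against 8319, 8883 and 8829 in wild type, log2 0.70) and Y102A5D.1 (log2 0.50) were large as well. Y52B11A.18 had 23741, 26957 and 24934 in henn-1, against 22461, 21807 and 19179 in wild type (log2 0.25, adjusted p = 0.0327, limma), and this direction was lost under TMM factors (log2 -0.00061). Its call was also lost with edgeR, DESeq2, library totals and the microRNA total, and without henn-1 replicate 2 or 3 or wild type replicate 2 or 3.

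**Figure D4:**
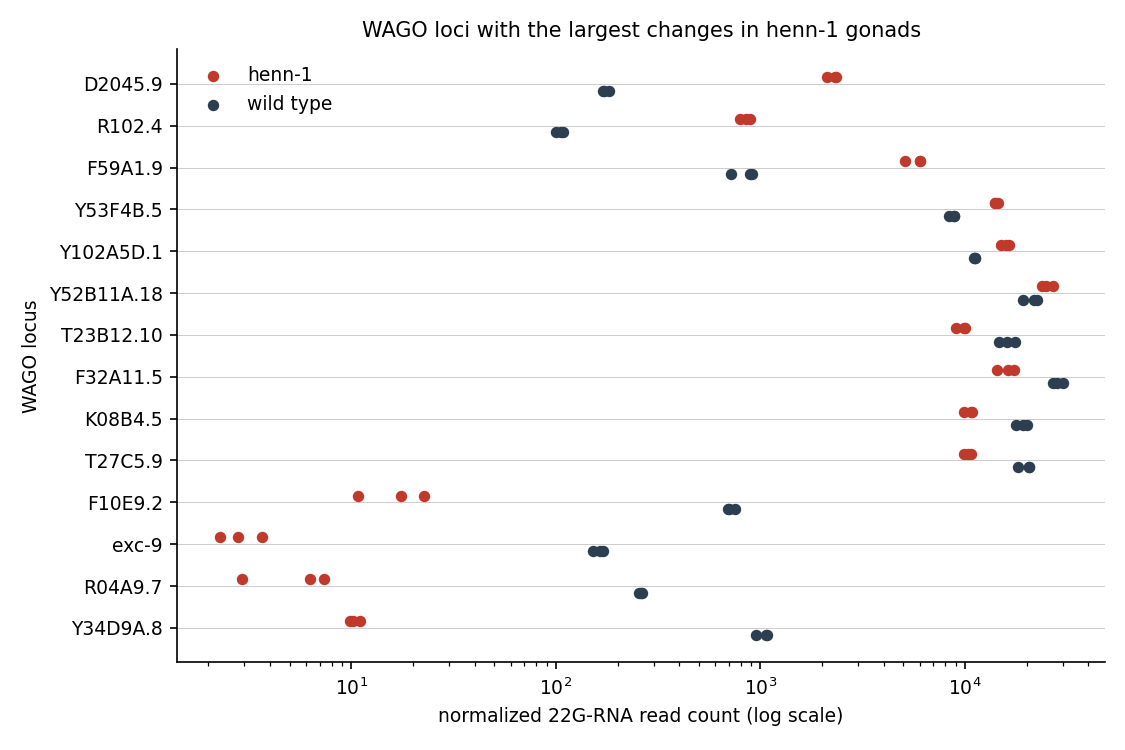
Normalized 22G-RNA read count (log scale) of 14 named WAGO loci in each library, with henn-1 drawn above wild type in each row. Y34D9A.8 has henn-1 values of 9.81 to 10.96 and wild type values of 953 to 1071, whereas D2045.9 has 2109 to 2351 in henn-1 and 171 to 181 in wild type.

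The plot of named WAGO loci places near-complete losses, moderate losses of more abundant loci and a small number of gains side by side. The loci of highest mean did not pass the test as deposited. The transposon WBTransposon00000216 had 35389, 38360 and 40330 in henn-1, against 38442, 38526 and 37616 in wild type (log2 -0.01, adjusted p = 0.943, limma). Y73B6BL.269, annotated in RefSeq as a long noncoding RNA, had 24148, 29410 and 29100 in henn-1, against 30994, 30215 and 24477 in wild type (log2 -0.05). eri-6, which encodes a helicase of the ERGO-1 26G-RNA pathway, had 24166, 25617 and 27634 in henn-1, against 29588, 30568 and 28988 in wild type (log2 -0.21, adjusted p = 0.0537). For the transposon and Y73B6BL.269 the libraries of the genotypes overlapped, and for eri-6 they did not. eri-6 was called lower in 9 of 17 alternatives, among them edgeR, DESeq2, TMM factors, the replicate block and the fit without henn-1 replicate 3, and the transposon in 3 (edgeR, DESeq2 and TMM factors).

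Whole animals of a separate set, with 1 library per genotype and stage and no test, gave WAGO changes of the same kind. Across WAGO loci the gonad change and the change in whole gravid adults at 68 h had r 0.82 and rho 0.81 (n = 2135). The values were 0.70 and 0.65 for embryos (n = 2018) and 0.68 and 0.63 for L4 larvae at 52 h (n = 1674), over loci that share the libraries of each set. Loci that fell in gonads had a median change of -0.89 in 68 h adults (above 0 for 2.35% of 1148), loci that rose had 0.36 (81.7% of 279), and loci not called had -0.23 (16.0% of 708). The scaling of the whole animal table is not stated in these sources, so its 0 is not that of the gonad table. Y34D9A.8 (-4.31), R04A9.7 (-4.44), F10E9.2 (-3.62) and exc-9 (-3.57) were strongly lower in 68 h adults too. R102.4 was higher at 1.79 and F59A1.9 at 0.96. D2045.9, the largest gain in gonads, was at 0.14 in 68 h adults, -0.35 in L4 larvae and 2.73 in embryos.

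**Figure D5:**
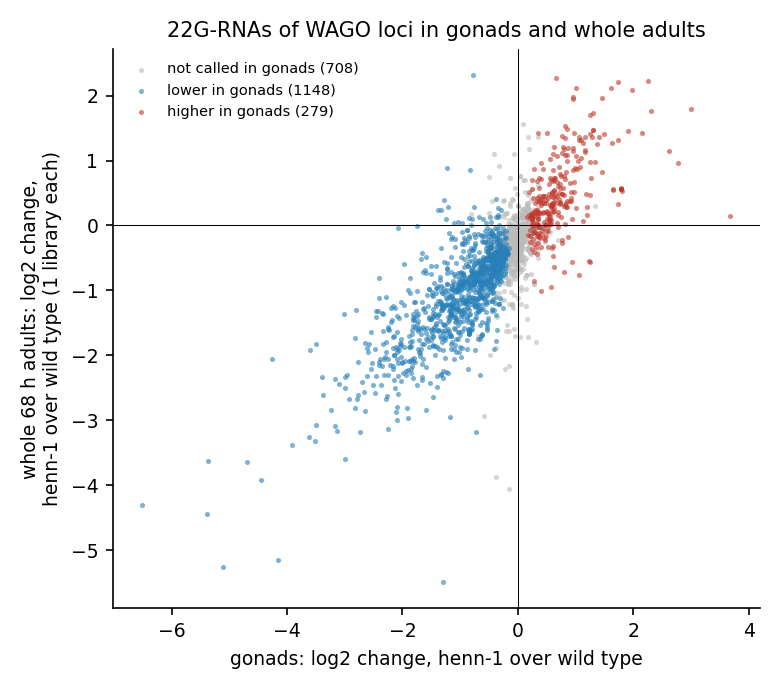
Log2 change of each WAGO locus, henn-1 over wild type, in gonads (horizontal axis, 3 libraries per genotype) and in whole 68 h adults (vertical axis, 1 library per genotype), coloured by the gonad call. Loci that fell in gonads lie mostly below 0 in adults (median -0.89, n = 1148) and loci that rose lie mostly above 0 (median 0.36, n = 279).

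As the scatter of gonads against adults shows, the points lie along a diagonal with a few exceptions such as D2045.9. Enrichment in Argonaute immunoprecipitates (IP over input, 1 library each, no test) set the groups apart only slightly. In the HRDE-1 IP the median log2 enrichment was 0.49 for loci that fell, 0.40 for loci that rose and 0.33 for loci not called. In the WAGO-1 IP it was 0.26, 0.60 and 0.40 in the same order. Among WAGO loci with a mean mRNA count of at least 10, mRNAs showed little relation to 22G-RNAs. These were 1243 of the 2387 tested loci and 637 of the 1319 that fell, so weakly expressed loci are not covered. The median mRNA log2 change in gonads was 0.11 for loci whose 22G-RNAs fell, 0.06 for loci whose 22G-RNAs rose and 0.05 for the rest, with r 0.01 and rho -0.06 over 1243 loci.

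CSR-1 loci moved little. Of the 317 that rose, 22 did so by at least 1.5-fold and 5 by at least 2-fold (F13H6.3, F30B5.4, R10E12.2, C40H1.6 and dml-1), and of the 179 that fell, 37 did so by at least 1.5-fold and 4 by at least 2-fold (F43G6.7, T19A6.1, mec-8 and F53H1.3). No CSR-1 locus was called with a change of 4-fold or more. The split between higher and lower of the 3542 tested depended on the scaling: TMM factors gave 21 higher and 1610 lower, library totals 117 and 421, and the microRNA total 13 and 397. Relative to the class, 241 rose and 171 fell. By level, the 146 loci at 1000 or more in separate wild type libraries had 8.22% higher and 12.3% lower, with 0.978 of the wild type sum, and the 2022 loci at 100 to 1000 had 1.02 of it.

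The CSR-1 loci with the largest losses were few. F43G6.7 had 332, 283 and 328 in henn-1, against 768, 627 and 724 in wild type (log2 -1.16, SE 0.09, adjusted p = 2.89e-06, limma). T19A6.1 changed by -1.17 and F53H1.3 by -1.06 on the log2 scale. F21A3.5, which RefSeq names prde-1 and which acts in the production of piRNA precursors, had 1772, 1743 and 1944 in henn-1, against 3512, 3748 and 3449 in wild type (log2 -0.97, adjusted p = 6.78e-07, limma). It is 1 of 27 tested loci that stand in both the CSR-1 and the WAGO list, of which 14 fell and 3 rose (chd-3, H05C05.2 and F25E5.1, named after their values were seen). mec-8, which encodes an RNA-binding splicing factor, had 7.31, 7.93 and 9.81 in henn-1, against 17.8, 14.1 and 25.99 in wild type (log2 -1.09), a call that was lost without wild type replicate 3. Among the strongest loci, F13D12.5 and hmg-12, which encodes a high mobility group protein, each fell by 0.43 on the log2 scale, and inos-1, for inositol-3-phosphate synthase, fell by 0.31 (adjusted p = 0.0476). The inos-1 call was lost in 5 of 17 alternatives, among them those without henn-1 replicate 2, henn-1 replicate 3 or wild type replicate 1.

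Gains at CSR-1 loci were of similar size. retr-1 had 2781, 2776 and 2993 in henn-1, against 1796, 1875 and 1490 in wild type (log2 0.73, SE 0.09, adjusted p = 3.81e-05, limma). ZK688.5 had 826, 869 and 725 in henn-1, against 499, 502 and 415 in wild type (log2 0.77), and cec-2, which encodes a chromodomain protein, rose by 0.68. The largest folds were at F13H6.3, with 39.5, 24.9 and 30.1 in henn-1, against 8.90, 11.4 and 9.28 in wild type (log2 1.56), at F30B5.4 (1.34) and at R10E12.2 (1.31). In these loci all henn-1 values lay above all wild type values. The gains of set-16, an MLL-type histone methyltransferase (log2 0.23), npp-10, a nuclear pore protein (0.20), and knl-3, a kinetochore protein (0.18), turned negative under TMM factors and the microRNA total. The knl-3 call was also lost without any one library other than wild type replicate 3, and that of set-16 without henn-1 replicate 3 or wild type replicate 1 or 2.

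The most abundant CSR-1 loci did not pass the test. snrp-200, which encodes a helicase of the U5 spliceosomal particle, had 22757, 21264 and 21102 in henn-1, against 21415, 20646 and 22218 in wild type (log2 0.02). klp-7, a kinesin of the microtubule-depolymerizing kind, was at -0.16, and set-9 at 0.15. CSR-1 loci that fell had a median HRDE-1 IP enrichment of -0.39, against -0.77 for those that rose and -0.80 for the rest, and in the WAGO-1 IP the medians were -0.13, -0.73 and -0.70. Their mRNAs differed little between the groups, with median log2 changes of -0.11, -0.10 and -0.06.

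Lists of germline and small RNA genes were described by counts, beside medians of -0.36 over all WAGO loci and 0.04 over all CSR-1 loci, of which 55.3% and 5.05% fell and 11.8% and 8.95% rose. Members named beyond the 2 of lowest adjusted p in a list were chosen after their values were seen. Under TMM factors far more loci of the whole CSR-1 class fell, as counted above. List counts under that scaling are to be read beside those class counts. Of 11 tested replicative histone loci, all in the WAGO class, 8 fell (72.7%) and 0 rose (median -0.69). his-37, a histone gene, had 71.6, 58.4 and 72.2 in henn-1, against 218, 225 and 190 in wild type (log2 -1.64). Near-identical histone copies may share reads, and his-28 and his-50 had the same values (log2 -0.78). Of 14 tested ERGO-1 target loci 7 fell (50%, near the share of the class) and 1, E01G4.7, rose (median -0.25), and the lowest adjusted p were those of the pseudogene H16D19.4 (log2 -0.86) and E01G4.5 (log2 -0.93). E01G4.7 was not called higher under TMM factors, where 10 of the 14 fell, nor without henn-1 replicate 2 or 3 or wild type replicate 1. Without henn-1 replicate 1, 4 of the 14 fell. Of 4 tested spermatogenesis loci 1 fell, spe-41, which encodes a calcium channel of sperm, with 149, 121 and 151 in henn-1, against 512, 429 and 438 in wild type (log2 -1.71). All henn-1 values of his-37 and spe-41 lay below all wild type values.

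Of 26 oogenesis loci, all in the CSR-1 class, 9 fell and 0 rose (median -0.10). puf-5, an RNA-binding protein of oocytes, had 582, 650 and 663 in henn-1, against 879, 960.3 and 817 in wild type (log2 -0.49). cpg-3, which encodes a proteoglycan of the eggshell, had 62.1, 59.5 and 70.1 in henn-1, against 107, 100.1 and 112 in wild type (log2 -0.73). The groups did not overlap for either gene. Of 17 Argonaute loci 4 fell and 0 rose (median -0.13): wago-2 (log2 -0.47, a pseudogene in RefSeq), ppw-1, an Argonaute of germline RNAi (log2 -0.24), prg-2, a Piwi relative (log2 -0.21), and alg-5 (log2 -0.18), whose call was lost without any one library. Relative to the class, 9 oogenesis and 4 Argonaute loci were lower. Under TMM factors 22 of the 26 oogenesis and 13 of the 17 Argonaute loci were lower. In these lists and the histone list 0 loci rose with limma at an unadjusted p under 0.05, or by edgeR or DESeq2.

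Lists of the small RNA pathways themselves were mixed, and the gains in them depended on the scaling. Of 13 mutator and 22G-RNA amplification loci 3 rose and 2 fell as deposited, and 1 rose and 7 fell under TMM factors. B0564.11, which RefSeq names rde-11 and which encodes a RING finger factor of RNAi, had 3424, 3843 and 3761 in henn-1, against 1650, 1882 and 1665 in wild type (log2 1.09). smut-1 (log2 0.37) and mut-16, a scaffold of mutator foci (log2 0.28), were higher, and the RNA-dependent RNA polymerase gene rrf-2 (log2 -0.49) and the exonuclease gene mut-7 (log2 -0.16) were lower. Of 14 piRNA biogenesis features 3 fell, which were henn-1 and both entries of prde-1, and tofu-5 rose (log2 0.34). Under TMM factors 0 rose and 10 fell. The tofu-5 call was lost in 10 of 17 alternatives, among them those without henn-1 replicate 2 or 3 or wild type replicate 2 or 3, and the mut-7 call without any one library other than wild type replicate 3.

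Of 14 nuclear RNAi and chromatin loci 3 rose, set-25, an H3K9 methyltransferase (log2 0.33), spr-5, an H3K4 demethylase (log2 0.26), and mes-2, an H3K27 methyltransferase (log2 0.22), and morc-1 fell (log2 -0.32). Under TMM factors 0 of these rose and 7 fell. Of 17 germline RNA-binding and stem cell loci 3 rose and 1 fell as deposited, and 1 rose and 8 fell under TMM factors, while 5 rose without henn-1 replicate 1. cpb-1, a CPEB family protein, had 952, 985 and 994 in henn-1, against 614, 669 and 652 in wild type (log2 0.60), and cpb-3 (log2 0.27) and atx-2 (log2 0.25) were higher, while nos-2, a Nanos family protein, was lower (log2 -0.34), though not without henn-1 replicate 1 or wild type replicate 2. Of 14 P granule and Z granule loci meg-3, listed as gei-12, rose (log2 0.51) and meg-2 fell (log2 -0.54), while under TMM factors 0 rose and 10 fell. The meg-2 call was lost in 6 of 16 alternatives, with the replicate block and without any one library other than wild type replicate 2.

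The remaining lists hardly moved as deposited. Of 25 meiotic loci 2 rose, coh-4, a cohesin subunit (log2 0.19), and F08G5.1, which RefSeq names dsb-1 and which is needed for meiotic double-strand breaks (log2 0.27), whereas under TMM factors 0 rose and 14 fell, with coh-4 at -0.06. The F08G5.1 call was also lost without henn-1 replicate 2 or wild type replicate 3. Of 6 loci of the 26G-RNA pathway 1 rose, eri-5 (log2 0.43), while dcr-1, the worm's Dicer, was at 0.10 and was not called. Under TMM factors 0 of the 6 rose and 4 fell, and edgeR called 0 higher and 3 lower. Of 17 ribosomal protein loci 0 were called in either direction by limma (median -0.01), and 10 were lower under TMM factors. At an unadjusted p under 0.05 limma gave 2 higher and 0 lower, while edgeR called 8 lower and DESeq2 2.

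MicroRNA arms rose at 23 of 79, but relative to the class only miR-4936 and miR-52-5p did. miR-4936 had 181, 169 and 175 in henn-1, against 66.8, 52.4 and 74.2 in wild type (log2 1.44, SE 0.15, adjusted p = 1.29e-05, limma, and 1.21 relative to the class). miR-78 had 1154, 1714 and 1588 in henn-1, against 990.4, 950.2 and 809 in wild type (log2 0.68, adjusted p = 0.00156, limma). For both, every henn-1 value lay above every wild type value. These 2 are the rows that another table of the authors marks as piRNAs. Both stood higher after periodate oxidation of wild type animals, by 1.69 for miR-4936 and 3.39 for miR-78 on the log2 scale, and they were the 2 of 77 microRNA arms above 0 in that ratio (median -3.28). miR-52-5p had 235, 295 and 357 in henn-1, against 154, 181 and 150.4 in wild type (log2 0.85, and 0.62 relative to the class).

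By family, 4 of 7 mir-51 arms rose (median 0.47), from mir-52, mir-53, mir-55 and mir-56, against 1 of 7 under TMM factors (median 0.21), and the miR-53-5p call was lost without henn-1 replicate 3. Of 4 mir-64 arms 2 rose (mir-64 and mir-229, median 0.34), and of 3 let-7 arms 1 rose (mir-48, median 0.47), with 0 called and positive medians in both families under TMM factors. Of 6 mir-58 arms 1 rose (mir-81, median 0.20) and of 6 mir-44 arms 1 rose (mir-247, median 0.13), and under TMM factors the medians of both were negative, at -0.06 and -0.13, with 0 higher in either family and 1 mir-44 arm lower. The call was lost in 11 of 16 alternatives for miR-247-3p, in 11 of 17 for miR-229-5p, in 9 for miR-64-5p and in 8 each for miR-81-3p and miR-48-5p, and for each of these without henn-1 replicate 2 and without wild type replicate 1, among other libraries. None of 13 mir-35 arms passed the test (median 0.12, and -0.13 under TMM factors), and 0 did so at an unadjusted p under 0.05 with limma or by edgeR or DESeq2. TMM factors called 1 lower, as did the fit without wild type replicate 3, while the fit without wild type replicate 2 called 3 higher and the replicate block 1 higher. miR-51-5p was the most variable abundant microRNA, with 29924, 8063 and 11470 in henn-1, against 5514, 9101 and 24308 in wild type, and the groups overlapped. It made up 30.4, 9.63 and 12.8% of microRNA reads in henn-1 libraries and 8.13, 10.98 and 29.8% in wild type libraries. Without it the microRNA total was 74156 ± 5186 in henn-1 and 64436 ± 8507 in wild type. miR-39-3p (log2 0.02) and miR-37-3p (log2 0.16), both of the mir-35 family, were not called and turned negative under TMM factors and the microRNA total.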

How the data were processed

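Small RNAs of 6 gonad libraries were analysed. The deposited signal values are read counts divided by a size factor per library, as their steps show, and the submitters' processing notes name DESeq2 1.18.1. For gonad mRNA they also list RSEM 1.3.0, STAR 2.5.0a and Trimmomatic 0.35, with no role or order. The aligner of the small RNAs and the genome build are not given here. All values (100%, tolerance 0.1) were whole multiples of 1 read, and reads recovered this way entered edgeR 4.0.16 and DESeq2 1.42.0 as alternatives. Log2 of the value plus 1 was tested with limma 3.58.1 (R 4.3.3, trend on the mean, Benjamini-Hochberg over 9456 features), also as shares of the class. The authors' embryo table holds expected counts per piRNA and read length, summed here without rounding. Signal values of stages and IPs, as deposited by the authors, have no stated scaling. Of 5738 22G-RNA loci 5460 matched RefSeq, which served for names only. Genotype and the methylation state of the 3′ end, which can affect ligation, cannot be told apart. Identical values occurred in 99 WAGO loci, whose reads may be shared between copies. Named features were, per class, the largest called and non-overlapping changes in reads (4 each way), in log2 (3 each way, the higher mean at or above the class median) and, except for microRNAs, in share (3 each way), the 3 of highest mean, the 2 of lowest adjusted p per list, henn-1 and prg-1. Members and lists were chosen with earlier results of these data known. Alternatives covered the filter, pseudocount, scaling, replicate block and each library left out, and piRNA relations were repeated over piRNAs with a wild type mean of at least 10.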

Additional observations from a re-analysis of the deposited data

Results flagged for a closer look

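Some WAGO loci that were called in gonads moved the opposite way in whole animals of the stage set, which has 1 library per genotype and stage, so the difference was not tested. In L4 larvae at 52 h the log2 change, henn-1 over wild type, was -0.35 for D2045.9 (3.68 in gonads), -0.33 for Y53F4B.5 (0.70 in gonads), -0.28 for cpb-1 (0.60 in gonads) and -0.15 for Y102A5D.1 (0.50 in gonads). Y52B11A.18, at 0.25 in gonads, was at -0.23 in embryos and -0.21 in L4 larvae. H16D19.4, at -0.86 in gonads, was at 0.038 in L4 larvae. The median over all tested WAGO loci in L4 larvae was -0.63 (n = 1674), and the scaling of that table is not stated.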

How the results depend on the processing

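The direction of the piRNA and WAGO call counts held under every alternative run. The piRNA and WAGO shares differed by 12.7 and -10.6 percentage points. Among the alternatives, only leaving out a library can change these shares, and they kept their direction there. Counts that moved by more than 1.5 times are given by setting. Without a filter 7971 features rose, of which 7368 were piRNAs, and 5 piRNAs and 1 microRNA fell. With a mean of at least 50, 2039 features rose, of which 1482 were piRNAs. Features chosen in other wild type libraries gave 1 lower microRNA in both fits. edgeR on recovered reads gave 2774 features lower, 6 piRNAs lower, 30 CSR-1 loci higher and 1013 lower, and 12 microRNAs higher and 1 lower. DESeq2 gave 2273 features lower, 6 piRNAs lower, 186 WAGO loci higher, 21 CSR-1 loci higher and 621 lower, and 11 microRNAs higher. TMM factors gave 3450 features lower, 6 piRNAs lower, 169 WAGO loci higher, 21 CSR-1 loci higher and 1610 lower, and 9 microRNAs higher and 3 lower. Library totals gave 5 piRNAs lower and 117 CSR-1 loci higher and 421 lower. The microRNA total gave 9 piRNAs lower, 140 WAGO loci higher, 13 CSR-1 loci higher and 397 lower, and 11 microRNAs higher. Relative to the class, no filter gave 2848 piRNAs higher and 4 microRNAs higher and 1 lower, a mean of at least 50 gave 722 piRNAs higher and 312 lower, and DESeq2 gave 148 CSR-1 loci higher. Median ratio scaling, which centres each class by construction, gave 839 piRNAs higher and 784 lower and 1 microRNA lower.

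Medians turned negative over all features with edgeR (-0.042), DESeq2 (-0.020), TMM factors (-0.11) and the microRNA total (-0.088). The CSR-1 median did so with edgeR (-0.14), DESeq2 (-0.12), TMM factors (-0.21), library totals (-0.041) and the microRNA total (-0.18), and the microRNA median with TMM factors (-0.0042). Relative to the class, median ratio scaling centres each class by construction. Its WAGO median of 0.0054 and microRNA median of -0.035 therefore say nothing of their sign. Leaving out henn-1 replicate 2, henn-1 replicate 3 or wild type replicate 3 turned the microRNA median relative to the class to -0.012, -0.0011 and -0.054, with values up to 0.13 without the other libraries. Of 98 named features, those that turned negative with TMM factors were Y52B11A.18 (-0.00061), set-16 (-0.028), knl-3 (-0.075), npp-10 (-0.060), snrp-200 (-0.24), set-9 (-0.11), dcr-1 (-0.15), spe-39 (-0.095), coh-4 (-0.063), rpl-10 (-0.11), rps-16 (-0.053), miR-39-3p (-0.23), miR-37-3p (-0.0997), lin-4-5p (-0.033), miR-35-3p (-0.0042), miR-39-5p (-0.019) and miR-61-3p (-0.033). With the microRNA total they were set-16 (-0.0032), knl-3 (-0.050), npp-10 (-0.035), snrp-200 (-0.21), set-9 (-0.082), dcr-1 (-0.13), spe-39 (-0.070), coh-4 (-0.038), rpl-10 (-0.082), rps-16 (-0.028), miR-39-3p (-0.21), miR-37-3p (-0.075), lin-4-5p (-0.0078) and miR-61-3p (-0.0080). With edgeR they were knl-3 (-0.0035), snrp-200 (-0.16), set-9 (-0.036), dcr-1 (-0.083), spe-39 (-0.025), rpl-10 (-0.035), miR-39-3p (-0.18) and miR-37-3p (-0.029), and with DESeq2 snrp-200 (-0.14), set-9 (-0.014), dcr-1 (-0.061), spe-39 (-0.0027), rpl-10 (-0.013), miR-39-3p (-0.16) and miR-37-3p (-0.0061). With library totals they were snrp-200 (-0.067) and miR-39-3p (-0.061). The cause was not tested.

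With each library left out in turn, 3755 to 3955 features rose and 1307 to 1488 fell. The counts were 3291 to 3358 piRNAs higher and 3 to 5 lower, 237 to 284 WAGO loci higher and 1185 to 1331 lower, 185 to 317 CSR-1 loci higher and 117 to 153 lower, and 13 to 34 microRNAs higher and 0 to 1 lower. The CSR-1 counts were 185 and 117 without henn-1 replicate 2, 195 higher without henn-1 replicate 3, and the lower count also fell by over 1.5 times without wild type replicate 2. The microRNA count was 13 without henn-1 replicate 3 and 15 without wild type replicate 1. Relative to the class they were 902 to 1457 piRNAs higher and 373 to 490 lower, 412 to 465 WAGO loci higher and 758 to 864 lower, 111 to 189 CSR-1 loci higher and 101 to 163 lower, and 1 to 6 microRNAs higher and 0 to 2 lower. The 902 piRNAs came without henn-1 replicate 3. The CSR-1 counts were 111 higher and 101 lower without henn-1 replicate 2, 115 and 106 without henn-1 replicate 3, and 109 lower without wild type replicate 2. Single features turned without henn-1 replicate 1 (WBTransposon00000216 and Y73B6BL.269 at 0.042, snrp-200 at -0.016, miR-51-5p at -0.15), without wild type replicate 1 (Y73B6BL.269 at 0.013, miR-51-5p at -0.083), without wild type replicate 2 (snrp-200 at -0.0078) and, for miR-39-3p, without henn-1 replicates 2 (-0.0031) and 3 (-0.023) and wild type replicate 3 (-0.16). At the other end of the ranges with a library left out, WBTransposon00000216 was at -0.052, snrp-200 at 0.045, miR-51-5p at 0.99 and miR-39-3p at 0.16. Share differences ranged over 12.24 to 12.9 points for piRNAs, -11.4 to -9.83 for WAGO loci, -2.75 to -1.58 for CSR-1 loci and 0.071 to 0.24 for microRNAs.

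Libraries of the same number did not deviate together (correlations -0.12, 0.12 and -0.039). Such correlations cannot show whether libraries of the same number were prepared together, and the labels do not say. With replicate number as a block, 3953 features rose and 1476 fell, with 3346 piRNAs higher and 3 lower, 285 WAGO loci higher and 1311 lower, 292 CSR-1 loci higher and 162 lower, and 30 microRNAs higher. No feature was called in opposite directions by the test on deposited values and any alternative to it, while 409 piRNAs that rose there fell as a share of their class. The henn-1 libraries held 6716969 to 8745475 recovered reads and the wild type libraries 4215264 to 7051210, which limits what can be said of piRNAs with few or no wild type reads.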

Other observations

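Further WAGO loci with large changes, named after their values were seen, include genes with known products. cdh-12, of the cadherin family, had 438, 516 and 560 in henn-1 gonads, against 5948, 5768 and 5531 in wild type gonads (log2 -3.51, SE 0.09, adjusted p = 2.18e-09, limma). Its 22G-RNAs were at 67.5 in henn-1 and 680.4 in wild type in whole 68 h adults, 40.7 and 493 in L4 larvae, and 128 and 936 in embryos. ins-17, an insulin-like peptide gene, had 36.5, 33.4 and 41.3 in henn-1, against 749, 686 and 604 in wild type (log2 -4.16), with 2.34 and 118 in 68 h adults. Both loci were lower in henn-1 in all 3 stages. hlh-30, which encodes a TFEB-family transcription factor, had 4524, 4381 and 4997 in henn-1, against 1069, 1004 and 1039 in wild type (log2 2.16, SE 0.07, adjusted p = 5.40e-09, limma). It was higher in henn-1 in every stage, with 359 and 134 in 68 h adults, 183 and 74.6 in L4 larvae, and 154 and 75.8 in embryos. atgp-1 had 791, 780.1 and 775 in henn-1, against 213, 201 and 180.05 in wild type (log2 1.98), and 159 and 36.8 in 68 h adults. The stage values have 1 library per genotype and no test.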
